A study of Mus musculus with 4 samples.

Results

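The muscleblind genes *Mbnl1*, *Mbnl2* and *Mbnl3*, the CELF genes *Celf1* and *Celf2*, the muscle splicing regulators *Rbfox2*, *Rbm24*, *Rbm38* and *Khdrbs1*, and the kinase gene *Dmpk* were followed in mouse myoblasts depleted of *Hnrnpl*. These 10 genes were taken by name from the 56748 gene IDs of the count files, and the ratio of *Mbnl1* to *Mbnl2* reads was formed in each library. The cells were C2C12, an established mouse myoblast line, of genotype WT. The scrambled group carried a scrambled shRNA and the knockdown group a cocktail of 3 shRNAs against *Hnrnpl*. Both plasmids also carried an eGFP reporter, and eGFP-expressing cells were kept under puromycin until stable. RNA was read directly, without PCR, on nanopore flow cells.

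There were 2 libraries per group, and the labels placed 1 of each group in each of 2 batches. Replicates were passages of the same selected stable line, so p-values measured only the spread between passages, and the line and the shRNA it carries cannot be told apart. In such bulk RNA, fewer cells that express a gene and less RNA per cell cannot be told apart either.

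Muscleblind proteins bind RNA in pre-mRNA and in mature transcripts, and during muscle maturation they move many exons from the fetal to the adult splicing pattern. CELF proteins act on many of the same exons in the opposite direction. In myotonic dystrophy type 1, an expanded repeat in the *DMPK* transcript traps muscleblind proteins in nuclear foci. RBFOX proteins bind GCAUG elements beside muscle exons, RBM24 and RBM38 are closely related RNA-binding proteins of differentiating muscle, and KHDRBS1 (Sam68) is a signal-responsive splicing regulator. *Hnrnpl* encodes a splicing regulator that binds CA-rich RNA.

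Of the 10 genes, *Mbnl2* fell to about 0.489 of its scrambled level, *Mbnl1* rose 1.38-fold by a margin that several settings removed, and 6 others did not pass the test. *Rbm24* and *Rbm38* were too low to test. The libraries held 1229424 to 1676911 reads counted on genes, so that 3 reads, the limit that a count of 0 allows, stand for 1.79 to 2.44 CPM, the unit of counts scaled to library size. *Hnrnpl*, the targeted gene, was read 358 and 656 times in the scrambled libraries and 242 and 258 times in the knockdown libraries, a log2 fold change of -0.78 (SE 0.18, adjusted p = 0.0112, edgeR). Its log2 fold change was -0.48 (adjusted p = 0.194, edgeR) without scrambled replicate 2 and -0.62 (adjusted p = 0.150, edgeR) without knockdown replicate 1, and the parametric fits of DESeq2 gave adjusted p-values of 0.0567 (Wald) and 0.0670 (likelihood ratio). Of 8 myoblast markers, 7 had reads and 4 could be tested. *Myf5*, a myogenic transcription factor, was read 113 to 190 times per library, *Des*, the muscle intermediate filament gene, 242 to 571 times, *Myod1* in 1 library with 1 read, and *Pax7*, a satellite cell marker, not at all. *Des*, *Cdh15* and *Ncam1* fell in knockdown, and the summed normalized count of the list was 748 and 835 in the scrambled libraries against 512 and 463 in the knockdown libraries. Of 11 myotube markers, 8 were at 0 in every library, and the list summed to 10 to 19 reads per library. Of 12 markers of other cells, 8 had reads and 4 could be tested. The neuronal genes *Stmn2* (257 and 217 reads in scrambled, 0 and 0 in knockdown) and *Tubb3* (150 and 149, against 20 and 18) fell. *Pparg* (21 and 31, against 72 and 49) and *Mgl2* (0 and 0, against 50 and 30) rose. The neuronal gene *Map2*, the fibroblast gene *Lum* and the immune cell genes *Ptprc* and *Adgre1* were at 0 in every library. *Cd68*, a macrophage gene, was read 2 to 4 times per library. *Adipoq*, a fat cell gene, had 1 read, in scrambled replicate 2. The list mixes cell types and summed to 439 and 413 reads in scrambled against 155 and 105 in knockdown. By adjusted p in edgeR, 3 of the 4 tested myoblast markers and all 4 of the other cells passed, beside 5.95% of all genes. These lists were drawn up with earlier results of these data known, so such shares are a description only. The part of these marker differences in the values of the splicing regulators was not tested.

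The hairpin targets are shown first because a hairpin that matches a splicing regulator would bear on every value that follows. Each target is written 5′ to 3′, with capitals for the longest unbroken stretch that it shares with any annotated *Mbnl2* transcript.
shRNA 1: aTTGACGGagtagtggaagct
shRNA 2: ctaCTCCATAACcacggatgt
shRNA 3: aTGGTCTATggcttggatcaa
The shared stretches were 7, 9 and 8 of the 21 bases. Stretches at least that long occurred in 91.8%, 14.1% and 63.1% of 8662 tested genes. In *Mbnl1* the longest were 9, 8 and 8 bases, and over the 10 genes the longest was 10 bases, for shRNA 1 in *Mbnl3* and for shRNA 3 in *Celf2*. All 21 bases of each target were found in *Hnrnpl*. The 7 target bases opposite positions 2 to 8 of a guide, the seed, occurred in transcripts of both *Mbnl1* and *Mbnl2* for shRNA 1 and shRNA 3, as they did in 53.4% and 34.2% of all genes, and in neither for shRNA 2. The search covered the annotated transcripts only and took no account of mismatches, so a short match is a description and not a site.

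*Mbnl2* and *Mbnl1* moved in opposite directions. *Mbnl2* (ENSMUSG00000022139.18, GRCm39 chromosome 14, 120512932 to 120669110, plus strand) had normalized read counts, that is counts scaled by the TMM factors of edgeR to the mean library size, of 270 and 315 in scrambled replicates 1 and 2 and 137 and 150 in knockdown replicates 1 and 2. Both knockdown libraries lay far under both scrambled libraries. The group means were 293 ± 32.1 and 144 ± 8.56 (SD, n = 2 each). The log2 fold change was -1.03 (SE 0.16, 95% interval -1.36 to -0.70, adjusted p = 0.000577, edgeR quasi-likelihood test with Benjamini-Hochberg adjustment), the 42nd smallest p among 8670 genes. The log2 difference within the batches was -0.97 and -1.07.

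*Mbnl2* lay on a chromosome where values were low in general. The median log2 fold change was -0.36 over the 282 tested genes of chromosome 14 and -0.38 over the 15 tested genes within 5 Mb of *Mbnl2*, 12 of which were lower in knockdown. None of these 15 neighbours was as low as *Mbnl2*, the lowest being at -0.90. Once every chromosome was centred on its own median, *Mbnl2* was still at -0.67 on the log2 scale, with an adjusted p of 0.0198 in edgeR.

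*Mbnl1* (ENSMUSG00000027763.14, chromosome 3, 60380102 to 60537183, plus strand) had 598 and 546 normalized reads in scrambled replicates 1 and 2 and 808 and 774 in knockdown replicates 1 and 2. Again the groups did not overlap, but in the other direction. The means were 572 ± 36.7 and 791 ± 24.2 (SD, n = 2 each). In edgeR the log2 fold change was 0.47 (SE 0.13, 95% interval 0.19 to 0.75, adjusted p = 0.0450). This lies under the fold threshold of the study, an absolute log2 fold change of 0.5 beside an adjusted p under 0.05 and a mean normalized count over 10. The difference within the batches was 0.43 and 0.50, and chromosome 3 had a median of 0.10. A replicate block raised the adjusted p to 0.0884 in edgeR, and without any 1 of the 4 libraries it lay between 0.0676 and 0.325, so that an adjusted p under 0.05 needed every library. With chromosome medians removed, *Mbnl1* was at 0.37 (adjusted p = 0.166, edgeR). Over all 17 alternative settings the log2 fold change stayed between 0.37 and 0.53 and the adjusted p was under 0.05 in 7, from 0.0216 to 0.325.

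**Figure D1:**
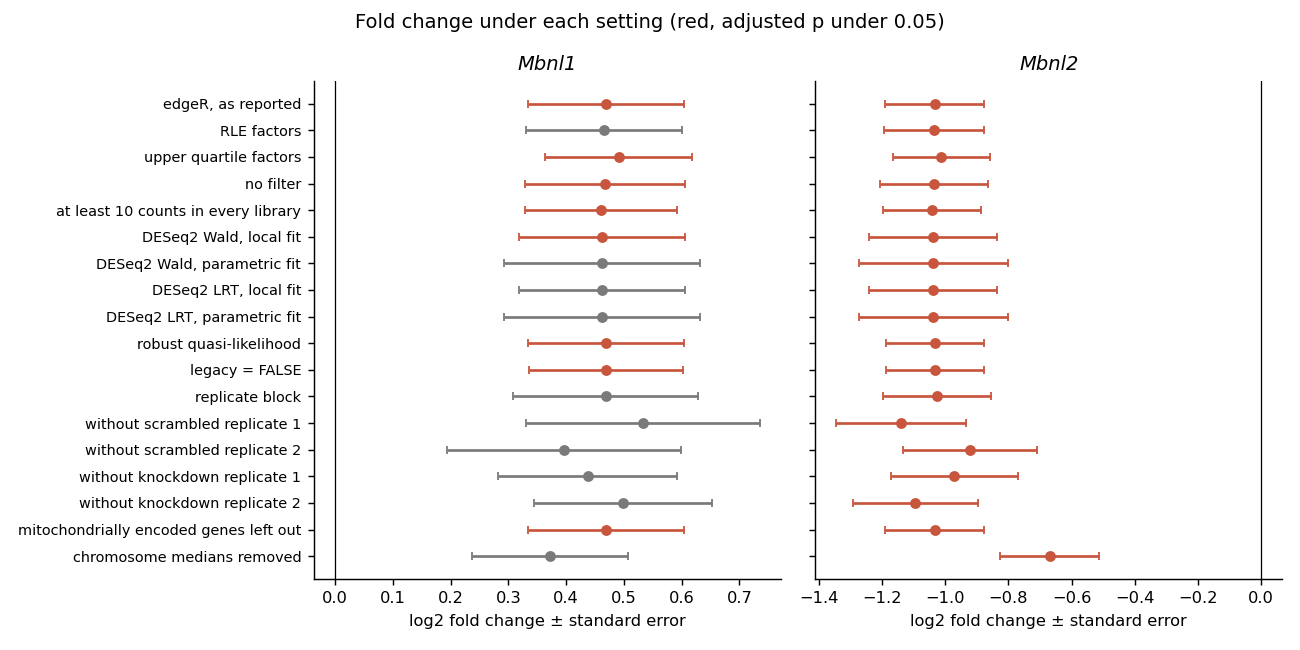
Log2 fold change (horizontal axis, knockdown over scrambled) of *Mbnl1* and *Mbnl2* under the reported edgeR fit and 17 alternatives (rows). Points are estimates, bars are 1 standard error to each side, and red marks an adjusted p under 0.05. All *Mbnl2* points are red and lie between -1.14 and -0.67, while *Mbnl1* stays between 0.37 and 0.53 and is red in the reported fit and in 7 of the 17 alternatives.

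*Mbnl3* (ENSMUSG00000036109.18, chromosome X, 50202383 to 50295478, minus strand), the muscleblind gene best known from placenta and regenerating muscle, was read 26 to 39 times per library. Its normalized counts were 27.2 and 32.8 (scrambled) and 31.9 and 32.7 (knockdown), which overlap. The log2 fold change was 0.09 with a 95% interval from -0.51 to 0.70 (adjusted p = 0.886, edgeR). At this depth, changes within that interval remain compatible with the counts.

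Because *Mbnl1* and *Mbnl2* moved in opposite directions, the make-up of the family shifted more than its sum. The ratio of *Mbnl1* to *Mbnl2* reads was 2.21 in scrambled replicate 1 and 1.73 in scrambled replicate 2, with exact 95% binomial (Clopper-Pearson) intervals of 1.91 to 2.57 and 1.52 to 1.97. In knockdown it was 5.88 (4.90 to 7.09) and 5.17 (4.27 to 6.30) in replicates 1 and 2. The intervals of the groups did not meet, though they cover counting error only. The mean ratio was 1.97 ± 0.341 for scrambled and 5.52 ± 0.498 for knockdown (SD, n = 2 each). This is a 2.82-fold difference between geometric means, or 1.49 on the log2 scale, and it was 2.66-fold in batch 1 and 2.99-fold in batch 2. An exact two-sided permutation test over the 4 libraries gave p = 0.333, the smallest that this test of 2 against 2 can give, so that it cannot reach 0.05 here.

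The ratio of reads needs no normalization between libraries, since both counts come from the same one. In direct RNA sequencing a read stands for a single molecule, so no length scaling was applied. The count files do not tell which transcripts of either gene were read.

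*Mbnl2* made up 30.2% and 35.3% of all muscleblind reads in the scrambled libraries and 14.1% and 15.6% in the knockdown libraries. The means were 32.7% ± 3.61 and 14.9% ± 1.12 (SD, n = 2 each), a difference of -17.9 percentage points, with an exact permutation p of 0.333. The summed normalized count of *Mbnl1*, *Mbnl2* and *Mbnl3* was 895 and 894 in the scrambled libraries and 977 and 956 in the knockdown libraries, a mean difference of 8.04%. In the mean, *Mbnl1* had 219 more normalized reads in knockdown, and *Mbnl2* dropped by 149.

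**Figure D2:**
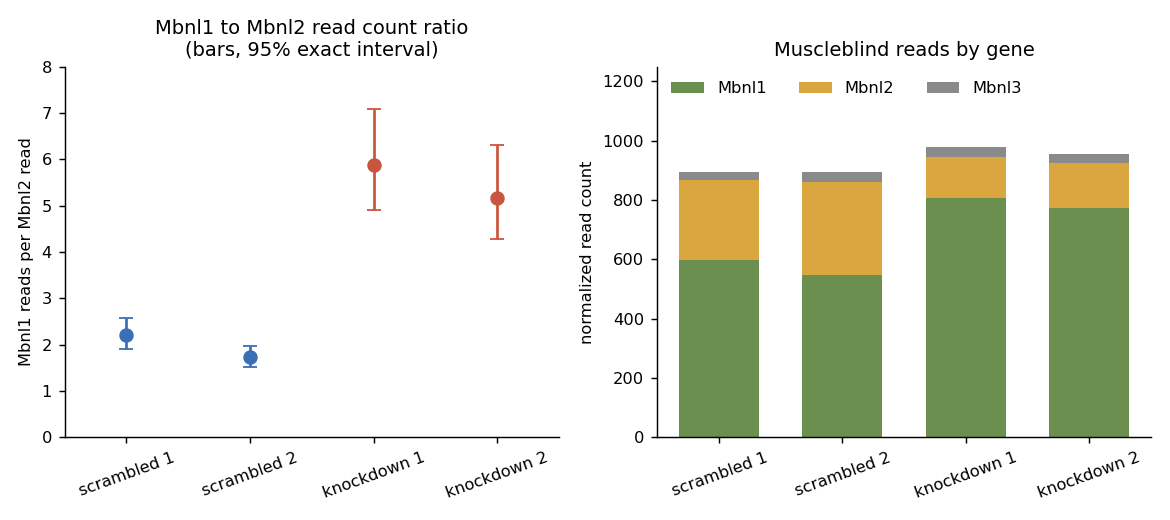
Left, *Mbnl1* reads per *Mbnl2* read (vertical axis) in each library, with exact 95% intervals as bars, scrambled in blue and knockdown in red. Right, normalized read counts of *Mbnl1*, *Mbnl2* and *Mbnl3* stacked per library. The knockdown ratios of 5.88 and 5.17 lie above the scrambled ratios of 2.21 and 1.73, while the stacks differ little in height, from 894 to 977.

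The CELF genes did not pass the test. *Celf1* (ENSMUSG00000005506.17, chromosome 2, 90770584 to 90849842, plus strand), which also binds GU-rich elements and promotes mRNA decay, stood at 161 and 163 normalized reads in scrambled, against 135 and 130 in knockdown. The libraries of a group lay close together and the groups did not overlap. The log2 fold change was -0.29 (SE 0.16, 95% interval -0.62 to 0.04, adjusted p = 0.302, edgeR). *Celf2* (ENSMUSG00000002107.19, chromosome 2, 6544505 to 7514374, minus strand), its close paralogue, stood at 119 and 120 in scrambled, against 144 and 118 in knockdown. Here knockdown replicate 1 alone stood above the rest, and the log2 fold change was 0.14 (95% interval -0.22 to 0.49, adjusted p = 0.693, edgeR).

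The ratio of CELF reads (*Celf1* and *Celf2*) to muscleblind reads (*Mbnl1*, *Mbnl2* and *Mbnl3*) was 0.313 and 0.317 for scrambled and 0.286 and 0.259 for knockdown. The means were 0.315 ± 0.00253 and 0.273 ± 0.0193 (SD, n = 2 each). The difference was -0.21 on the log2 scale, again with an exact permutation p of 0.333, and the counting intervals of the groups overlapped (0.272 to 0.360 in scrambled replicate 1, 0.250 to 0.327 in knockdown replicate 1).

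*Rbfox2*, *Khdrbs1* and *Dmpk* did not pass the test either. *Rbfox2* (ENSMUSG00000033565.19, chromosome 15, 76963189 to 77191303, minus strand), the RBFOX gene read in these cells, had 120 and 137 normalized reads in scrambled, against 139 and 124 in knockdown. The groups overlapped, with a log2 fold change of 0.03 (95% interval -0.32 to 0.38, adjusted p = 0.938, edgeR). *Khdrbs1* (ENSMUSG00000028790.14, chromosome 4, 129594392 to 129636173, minus strand) had 353 and 296 in scrambled, against 309 and 324 in knockdown. Both knockdown values fell between the scrambled values, with a log2 fold change of -0.03 (95% interval -0.34 to 0.27, adjusted p = 0.921, edgeR).

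*Dmpk* (ENSMUSG00000030409.17, chromosome 7, 18817406 to 18827746, plus strand), the kinase gene whose human counterpart carries the repeat of myotonic dystrophy type 1, had 78.5 and 108 normalized reads in scrambled, against 146 and 113 in knockdown. Knockdown replicate 2 lay just above scrambled replicate 2. The log2 fold change, 0.47, was as large as that of *Mbnl1*, but its SE was 0.19 and its adjusted p 0.148 in edgeR. The batches differed, with 0.89 in batch 1 and 0.07 in batch 2. With a library left out, the log2 fold change ran from 0.27 (without knockdown replicate 1) and 0.28 (without scrambled replicate 1) to 0.72 (without scrambled replicate 2).

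The remaining members, *Rbm24* (ENSMUSG00000038132.7, chromosome 13, 46571589 to 46584575, plus strand) and *Rbm38* (ENSMUSG00000027510.18, chromosome 2, 172862291 to 172876527, plus strand), were all but absent from the counts. *Rbm24* had no read in any library. *Rbm38* had 2 reads, both in knockdown replicate 1. No fold is given for either, as both groups lay under 3 reads per library.

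By adjusted p alone, 1 of the 8 tested members was higher and 1 lower, beside 5.95% of all 8670 genes in either direction (2.51% higher, 3.44% lower). With the fold and mean count thresholds, *Mbnl2* alone was called, beside 5.55% of all genes (2.33% higher, 3.22% lower). An unadjusted p under 0.05 was reached by 3 members, with *Dmpk* as the third, and by 21.8% of all genes. Scrambled and knockdown libraries were fully separated for 4 of 8 members (*Mbnl1*, *Mbnl2*, *Celf1* and *Dmpk*) and for 52.4% of all genes (26.4% higher, 26.0% lower), so that separation alone was no more frequent among the members. The median log2 fold change was 0.06 over the members and -0.00059 over all tested genes. The 6 members that did not pass had adjusted p-values from 0.148 to 0.938 in edgeR and log2 fold changes from -0.29 to 0.47.

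**Figure D3:**
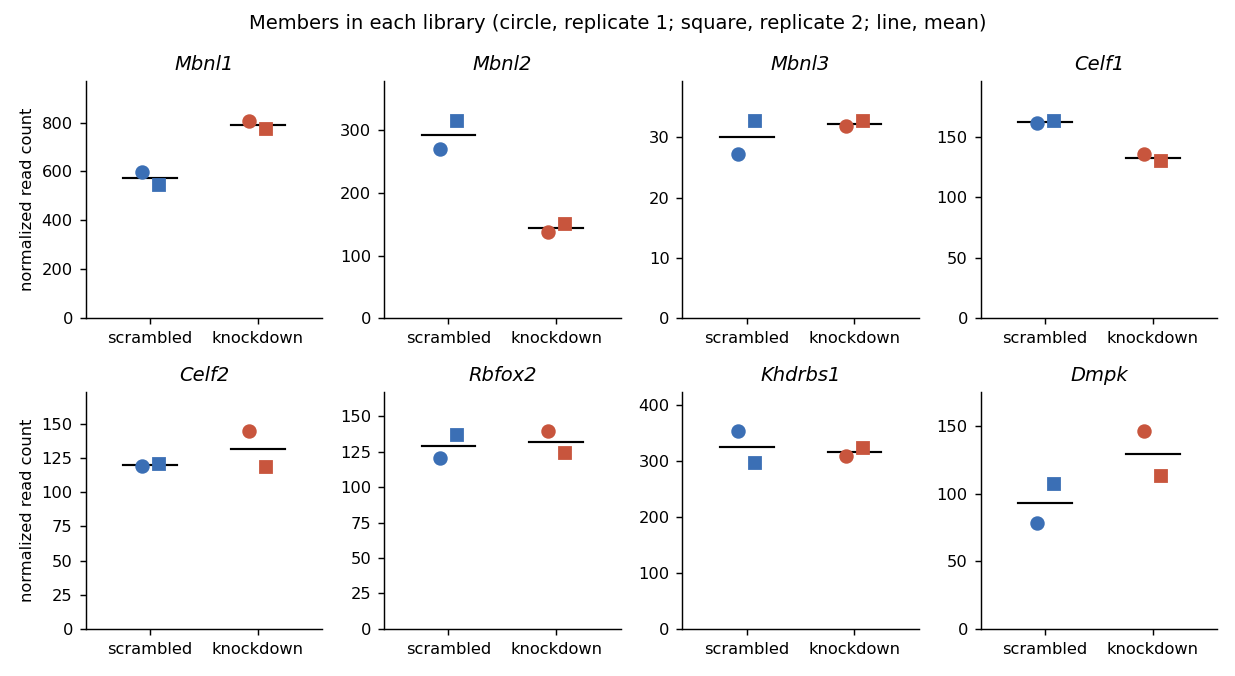
Normalized read counts (vertical axes, each from 0) of the 8 tested members in the scrambled (blue) and knockdown (red) libraries. Circles are replicate 1, squares replicate 2 and lines group means. The groups are apart for *Mbnl2* (293 to 144), *Mbnl1* (572 to 791), *Celf1* (162 to 133) and *Dmpk* (93.1 to 130), while *Mbnl3*, *Celf2*, *Rbfox2* and *Khdrbs1* overlap.

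**Figure D4:**
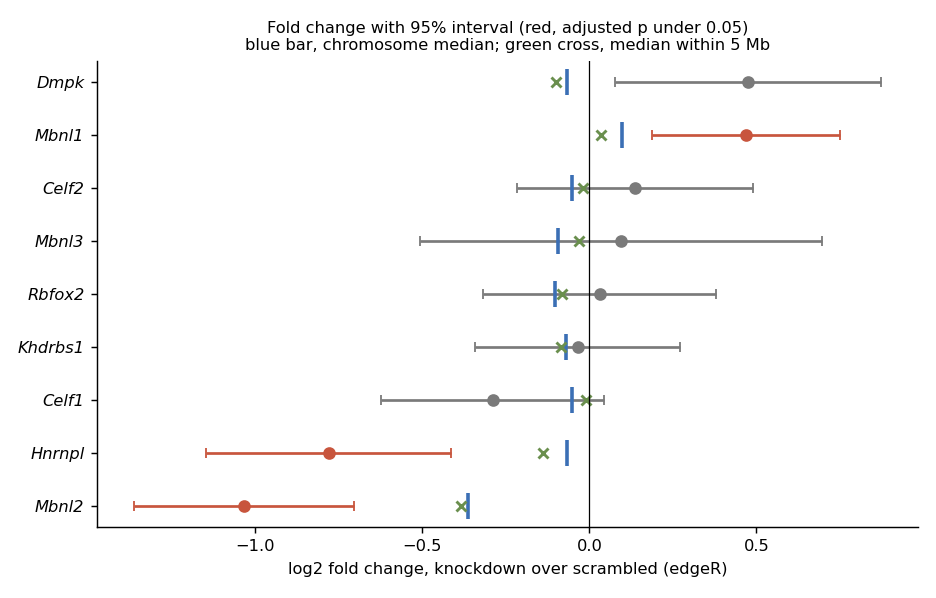
Log2 fold change of the 8 tested members and *Hnrnpl* (horizontal axis) with 95% intervals from edgeR. Red marks an adjusted p under 0.05, blue bars the median of all tested genes on the same chromosome and green crosses the median within 5 Mb. The interval of *Mbnl2* ends at -0.70, under its chromosome median of -0.36, and that of *Mbnl1* starts at 0.19, above its chromosome median of 0.10.

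Of 24 paralogues and other tissue-specific splicing regulators, 15 had reads and 7 could be tested. Of these 7, 0 were higher and 2 lower by adjusted p, beside 2.51% and 3.44% of all 8670 genes. *Khdrbs3*, the paralogue of *Khdrbs1*, was read 32 and 33 times in scrambled, against 8 and 6 times in knockdown, and fell by 75.0% in the edgeR fit (95% interval of the knockdown to scrambled fold 0.141 to 0.444, adjusted p = 0.00458). *Rbpms2*, an RNA-binding protein of smooth and cardiac muscle, was read 129 and 187 times against 81 and 92 times, a log2 fold change of -0.65 (SE 0.18, adjusted p = 0.0399, edgeR). Neither passed in every setting, *Khdrbs3* in 13 of 16 alternatives and *Rbpms2* in 10 of 17. Without knockdown replicate 1, the adjusted p in edgeR was 0.05003 for *Khdrbs3* and 0.300 for *Rbpms2*, and without scrambled replicate 2 it was 0.199 for *Rbpms2*. With chromosome medians removed, *Rbpms2* was at -0.28 on the log2 scale (adjusted p = 0.523, edgeR). In DESeq2 with the local fit, the adjusted p of *Rbpms2* was 0.196 (Wald) and 0.209 (likelihood ratio). With the parametric fit it was 0.525 and 0.582. *Khdrbs3* passed in DESeq2 with the local fit (0.0383 and 0.0342) but not with the parametric fit (0.162 and 0.179). *Rbfox1*, *Rbfox3*, *Celf3* and *Celf6* were at 0 in all libraries. *Qki*, a further regulator of muscle splicing, and *Elavl1*, a stabiliser of AU-rich transcripts, were the most read genes of the list beside *Rbpms2* and had log2 fold changes of 0.07 and -0.03 (adjusted p = 0.833 and 0.937, edgeR). The median of the 7 tested genes was -0.12.

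Of 8 genes that encode kinases related to DMPK or lie next to *Dmpk*, all had reads and 5 could be tested. None of the 5 passed in edgeR or DESeq2, and 1 had an unadjusted p under 0.05 in edgeR, beside 21.8% of all genes. *Rock2* was at -0.24, and *Dmwd*, the gene next to *Dmpk*, at -0.18 (adjusted p = 0.627, edgeR).

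A list of 30 genes whose transcripts are known targets of muscleblind, CELF or related splicing regulators was compared in total level. Such a level says nothing of their exons. There were 17 tested genes, of which 1 was higher and 0 lower by adjusted p, beside 5.95% of all genes, and the median log2 fold change was -0.04. The groups were separated for 10 of the 17, and 5 of the 17 had an unadjusted p under 0.05, beside 52.4% and 21.8% of all genes. These 5 were *Cd47*, *Pkm*, the cardiac troponin gene *Tnnt2* (log2 fold change 0.58), the membrane-shaping gene *Bin1* (-0.48) and the hyaluronan receptor gene *Cd44* (-0.40). *Tnnt2* was read 148 and 154 times in scrambled, against 136 and 251 times in knockdown. Its log2 difference was -0.19 in batch 1 and 1.18 in batch 2. Knockdown replicate 2 alone was high, and it is the only knockdown library left when knockdown replicate 1 is dropped. The gene that rose was *Cd47*, a membrane protein that inhibits phagocytosis, read 204 and 226 times in scrambled, against 341 and 226 times in knockdown (log2 fold change 0.59, SE 0.16, adjusted p = 0.0349, edgeR). It passed in 10 of 17 alternatives, and its adjusted p in edgeR was 0.205 without scrambled replicate 2, 0.294 without knockdown replicate 1 and 0.439 with chromosome medians removed, where the log2 fold change was 0.29. In DESeq2 with the local fit, the adjusted p of *Cd47* was 0.0973 (Wald) and 0.104 (likelihood ratio). With the parametric fit it was 0.341 and 0.384. The most read targets were *Pkm* (pyruvate kinase), *Fn1* (fibronectin) and *Capzb* (an actin capping protein), at -0.34, -0.24 and -0.13, none past the test. With a library left out, *Fn1* ran from -0.41 (without knockdown replicate 2) to -0.088 (without knockdown replicate 1), and *Capzb* from -0.21 (without knockdown replicate 1) to -0.057 (without knockdown replicate 2).

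Genes with profiles most like *Mbnl1* and *Mbnl2* were sought among 2574 genes averaging over 100 normalized reads, by the Euclidean distance of log2 values centred on the mean of the 4 libraries. Nearest to *Mbnl1* were *Memo1*, *Lnpep* and *Hdlbp*, at distances of 0.0312, 0.0315 and 0.0330, with log2 fold changes of 0.49, 0.45 and 0.46. Of these, *Memo1* alone had an adjusted p under 0.05 in edgeR (0.0480), and with the replicate block it was 0.0803 and with any 1 library left out 0.0762 to 0.328. Nearest to *Mbnl2* were *Dpysl3*, *Col5a1* and *Purb*, farther off at 0.137, 0.171 and 0.173, with log2 fold changes of -1.09, -1.02 and -0.91. These 3 genes passed in all 17 alternatives. The genes were chosen by these same values, so their fold changes and tests give no separate support. With 4 libraries, such likeness is a description of these libraries only.

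Since hnRNP L binds CA-rich RNA, stretches of at least 8 bases of alternating C and A (ACACACAC or CACACACA, sense strand) were counted in the gene bodies, introns included, of GRCm39. The gene body of *Mbnl2* held 102 such stretches in 156179 bases, 36 of them within a single window of 5 kb. This is 6.53 per 10 kb, at the 98.6th percentile of 8662 tested genes, whose median was 1.41 and of which 80.4% held at least 1. The gene body of *Mbnl1*, of nearly the same length (157082 bases), held 24, or 1.53 per 10 kb, at the 54.6th percentile. The longest stretches were 47 bases in *Mbnl2* and 46 bases in *Mbnl1*. *Celf2*, a far longer gene, held 228 (2.35 per 10 kb, 77.6th percentile), and *Khdrbs1* and *Dmpk* held 1 each (19.8th and 34.4th percentiles). *Rbm38*, a short gene, held 6 (4.21 per 10 kb, 94.9th percentile). *Rbm24*, *Rbfox2*, *Mbnl3* and *Celf1* lay at the 76.7th, 74.0th, 67.3rd and 40.4th percentiles. Spliced canonical transcripts, 1 per gene, held 2 stretches in *Mbnl3*, 3 in *Celf2* and none in the other members. Of all tested genes, 22.1% had at least 1, at a median transcript length of 3389 bases. The canonical transcript of *Mbnl2* has 2284 bases, while the exons annotated for the gene cover 15909, so most of its exon sequence is outside this count. Across the 8662 genes, Spearman's rho between the density in the gene body and the log2 fold change was 0.0365, and the 434 densest genes had a median log2 fold change of -0.004. These correlations are across genes, which are not independent replicates, and a stretch of these letters is not a binding site.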

How the data were processed

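Nanopore direct RNA reads of 2 scrambled and 2 knockdown libraries were used. The authors basecalled with guppy, mapped to GRCm39 with minimap2 2.17 and counted reads per gene with HTSeq 0.9.1, and they deposited whole counts for 56748 gene IDs. The annotation release and strand setting of the counting are not given in the sources used here. Genes on the opposite strand cover 3.83% of the exon bases of *Mbnl2*, 0.718% of *Rbfox2*, 13.4% of *Rbm38* and 7.67% of *Dmpk*, where reads cannot be told apart without strand. Symbols came from GENCODE vM39, which held 56017 of the IDs. Reads that HTSeq could not assign (42.2% to 43.5% per library) stayed out of the totals.

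Counts were tested in edgeR 4.0.16 (R 4.3.3) with TMM factors, filterByExpr and the quasi-likelihood test over 8670 genes, adjusted by the Benjamini-Hochberg method. The script was tested on simulated data. DESeq2 1.42.0, other factors and filters, left-out libraries, and removal of mitochondrially encoded genes or chromosome medians served as alternatives. The package limma 3.58.1 was used only within edgeR. Ratios were tested by exact permutation over libraries. No PCR was used. The exact intervals of ratios and shares cover counting error only, while those of fold changes come from the edgeR fit and include spread between libraries.

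The labels give each replicate number as a batch number, which pairs the libraries. Deviations from the group means correlated at 0.00152 between groups over 4501 genes. The block was kept as an alternative, as the study's model has none.

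The members and lists were chosen with earlier results of these data known. Named genes were all members, *Hnrnpl*, list genes with an adjusted p under 0.05, the 3 genes with the most reads in each related list, and the 3 genes nearest to *Mbnl1* and to *Mbnl2*. A gene of the list of kinases is not reported here. The marker genes, *Tnnt2*, *Bin1*, *Cd44* and the paralogues at 0 were named after their values were seen. The last 800 bases of every protein-coding transcript of the 10 genes mapped back to its own gene with minimap2 2.31-r1302 at a mapping quality of 60. These were reference sequences without read errors, so this does not show how the nanopore reads of these genes mapped. HTSeq left out 22.7% to 23.8% of reads per library for low alignment quality.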

Additional observations from a re-analysis of the deposited data

How the results depend on the processing

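Over 17 alternatives, *Mbnl2* was the 1 member called in each. Its log2 fold change ran from -1.14 to -0.67 and its highest adjusted p was 0.0205 in edgeR or DESeq2. The replicate block pairs libraries by batch. For the ratios and the share it returns the group difference by construction, as each batch holds 1 library of each group. It is therefore no check on them. The values were 1.49 (log2) for the *Mbnl1* to *Mbnl2* ratio, -17.9 points for the *Mbnl2* share and -0.21 (log2) for the CELF to muscleblind ratio. Among the named genes the block took the edgeR adjusted p of *Mbnl1* (0.0884) and *Memo1* (0.0803), and of no other, over 0.05. With 1 library left out, the ratio differed by 1.32 to 1.67 on the log2 scale, the share by -20.4 to -15.3 points and the CELF ratio by -0.28 to -0.14. Without *Celf2* the CELF ratio differed by -0.40.

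In the related lists 3 of 29 tested genes were called, beside 5.55% of all genes. There were 1 and 0 in the DESeq2 Wald test with the local and the parametric fit, 1 and 0 in the likelihood-ratio test, 1 with chromosome medians removed, and 1 to 4 with a library left out, the lowest without knockdown replicate 1, where the gene called was *Tnnt2* and none of the 3. Over 26 named genes and all alternatives, 385 of 441 values kept their direction and side of 0.05, 42 lost an adjusted p under 0.05 and 14 turned direction, none of the 14 a called gene. With chromosome medians removed, *Khdrbs1* was at 0.036, *Qki* at -0.12, *Elavl1* at 0.053 and *Pkm* at 0.027. With a library left out, *Mbnl3* ranged from -0.025 to 0.24, *Celf2* from -0.022 to 0.27, *Rbfox2* from -0.060 to 0.12, *Khdrbs1* from -0.17 to 0.093, *Qki* from -0.10 to 0.25 and *Elavl1* from -0.13 to 0.064. The cause was not tested. At this depth *Mbnl3* kept an interval of -0.51 to 0.70, and *Rbm24* and *Rbm38* could not be compared.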

Other observations

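A pair of ratios within gene families was chosen after the values were seen and is given as a description. The ratio of *Celf1* to *Celf2* reads was 1.35 and 1.36 in scrambled, against 0.938 and 1.10 in knockdown, and the exact 95% counting intervals of the groups overlapped. The ratio of *Khdrbs1* to *Khdrbs3* reads was 10.5 and 10.7 in scrambled, against 38.8 and 46.2 in knockdown, a 3.99-fold difference that rests on 6 to 33 *Khdrbs3* reads per library. The summed normalized count of all 10 members was 1728 and 1719 in scrambled, against 1854 and 1765 in knockdown, a mean difference of 5.01%.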
